A study of Mus musculus with 9 samples.

Results

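The microRNA pair miR-221 and miR-222 (hairpins mmu-mir-221 and mmu-mir-222) was followed in B16F1 cells, a mouse melanoma line (strain C57BL/6, given as C57BL/6J in the growth protocol), by small RNA sequencing of 9 libraries. Each of 3 conditions had 3 independent replicates. Control cells received no compound, L-Tyr (L-tyrosine, the amino acid from which melanin is made) was given at 5 mM, and 5-Brd-2′-dU (bromodeoxyuridine, a thymidine analogue that dividing cells build into DNA) at 2.5 µg/mL, both for 72 h. The count table lists short sequences, called tags here, under the hairpin precursor each was assigned to, and members were the entries named for the mir-221 or mir-222 hairpin and their mature names. These were 16 of the 6414 entries, namely 12 tags (7 of mir-221 and 5 of mir-222, among 4351 tags in all) and 4 mature names, all of which had 0 counts in every library. Tags whose start number lay under 35 were taken as the 5p arm of the hairpin and the others as the 3p arm.

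A microRNA is cut from a hairpin precursor, and one arm is loaded into Argonaute, which it guides to messenger RNAs through its seed, bases 2 to 8 counted from the 5′ end. A change in the 5′ end therefore moves the seed, whereas a change in the 3′ end does not. miR-221 and miR-222 lie side by side on the X chromosome, are made from a common transcript and share a seed, and their known targets include the cell cycle inhibitor p27 (Cdkn1b) and the receptor Kit. In melanoma they are known as promoters of proliferation and invasion, and they are also abundant in endothelial and vascular smooth muscle cells.

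In the mouse genome NCBIM37 (mm9), Mir221 lies at chrX:18723420-18723514 and Mir222 at chrX:18724019-18724097, both on the minus strand with 504 bases between them. Neither overlaps another annotated gene. The nearest gene was the long noncoding RNA Gm14636, at 10010 bp from Mir222, and the nearest protein-coding gene was BC049702, at 332449 bp. The mature sequences below are those of RefSeq (GRCm38.p6), shown because the starts of the tags are measured against them, with the seed in capitals.
miR-221-3p: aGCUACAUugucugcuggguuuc
miR-222-3p: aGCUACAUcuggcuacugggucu
miR-1928: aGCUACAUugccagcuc
miR-1928, the other mouse microRNA of that table with this seed, had 0 counts. Both 3p sequences are 23 nt long, longer than any tag of the table, where tags ran from 13 to 20 nt.

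The 7 tags of mir-221 all came from its 3p arm. They are shown with bases 2 to 8 of each tag in capitals, because these bases differ from the reference seed in every tag that starts later. The name gives the number of bases by which a tag starts after the reference 5′ end.
mir-221 start 0, ending in a: aGCTACATtgtctgctgga
mir-221 start 0, ending in gt: aGCTACATtgtctgctgggt
mir-221 start +2: cTACATTGtctgctgggttt
mir-221 start +3, ending in ttt: tACATTGTctgctgggttt
mir-221 start +3, ending in tttc: tACATTGTctgctgggtttc
mir-221 start +4: aCATTGTCtgctgggttt
mir-221 start +5: cATTGTCTgctgggttt
The first tag carries G19A, counted from its 5′ end against the reference, and had no exact match in the genome. The last also matched chr5:20565991-20566007 on the plus strand, so its counts may not all belong to miR-221. The other 5 matched once, within Mir221.

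The tags of mir-222 were 4 from the 3p arm and 1 from the 5p arm, each with 1 genome match, within Mir222.
mir-222 start 0, ending in gg: aGCTACATctggctactgg
mir-222 start 0, ending in ggg: aGCTACATctggctactggg
mir-222 start +2: cTACATCTggctactgggt
mir-222 start +3: tACATCTGgctactggg
mir-222 5p: cTCAGTAGccagtgtagatc
Only 4 tags of the whole table hold the shared seed at bases 2 to 8, and all 4 are members, the start 0 tags above. Each of the 12 tags was listed under 1 hairpin only.

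The libraries held between 144452 and 424122 counts, so that 3 counts, the upper limit that a count of 0 allows, were worth 7.07 to 20.8 CPM, which are counts scaled to a fixed total per library. One library stood apart. Replicate 3 of 5-Brd-2′-dU had 30 arms, of 177 with at least 100 counts, at more than 5 times their level in every other library, and these made up 23.5% of its counts. Most of that share was miR-143-3p, at 193607 CPM. Entries for miR-126a and miR-144 recur among the 30, under predicted or mature names. Many others are on none of the cell type lists used below. Among these were miR-379-5p (2678 CPM), miR-431-5p (1715 CPM), miR-369-3p (1212 CPM), miR-200c-3p (1083 CPM), miR-376c-3p (800 CPM) and miR-411-5p (763 CPM). Replicate 1 of 5-Brd-2′-dU had 1 such arm and the other 7 libraries had 0. With CPM scaled by total count, miR-222-3p was among the 30 and miR-221-3p was not. The TMM factor, which rescales a library's total, was 0.731 in this library and 0.864 to 1.14 in the others. TMM scaling would therefore raise its levels beside theirs. Whether miR-221-3p would then be among such arms was not computed. The limits of 100 counts and 5 times were chosen after the values were seen, so the results on the pair that rest on this library are given with and without it. In melanoma cells miR-211, which is made from an intron of the melanocyte gene Trpm1, marks the lineage. It was present in every library, at 5394 CPM in replicate 3 of 5-Brd-2′-dU and 7656 to 28592 CPM in the others.

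miR-221-3p was detected in all 9 libraries, but at few counts. It had 25, 33 and 5 counts in the control libraries, 1, 57 and 48 in the L-Tyr libraries, and 7, 60 and 392 in the 5-Brd-2′-dU libraries, replicates 1 to 3 in that order. As CPM these were 126, 77.8 and 19.0 CPM in control cells, 6.92, 239 and 275 CPM with L-Tyr, and 40.8, 156 and 1028 CPM with 5-Brd-2′-dU. The ranges of the 3 conditions overlapped. The highest library, replicate 3 of 5-Brd-2′-dU, held 62.4% of the 628 counts (95% Wilson interval 58.6 to 66.1%). In CPM scaled by total count it stood 3.74-fold above the next, replicate 3 of L-Tyr. Intervals here cover counting error only, since reads from PCR are not independent molecules.

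The mean level was 74.2 CPM ± 53.5 (SD, n = 3) in control cells, 174 CPM ± 146 (SD, n = 3) with L-Tyr and 408 CPM ± 540 (SD, n = 3) with 5-Brd-2′-dU. Without replicate 3, the mean with 5-Brd-2′-dU was 98.5 CPM ± 81.5 (SD, n = 2), below that with L-Tyr. The place of 5-Brd-2′-dU in the order of the means therefore rested on 1 library, and no neighbours in either order were further apart than their spread. In bulk RNA, a change in the number of cells that hold a microRNA and a change in its amount per cell cannot be told apart.

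miR-222-3p was close to absent outside 1 library. It had 249 counts in replicate 3 of 5-Brd-2′-dU and 3 in replicate 3 of the control, and 0 in the other 7 libraries. The first of these held 98.8% of all 252 counts (95% Wilson interval 96.6 to 99.6%), at 653 CPM. This was at least 31.4-fold to 92.3-fold higher than the limit of 3 counts in each of the 7 libraries at 0. The other replicates of 5-Brd-2′-dU were at 0, like all those of L-Tyr, so that the conditions overlapped.

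**Figure D1:**
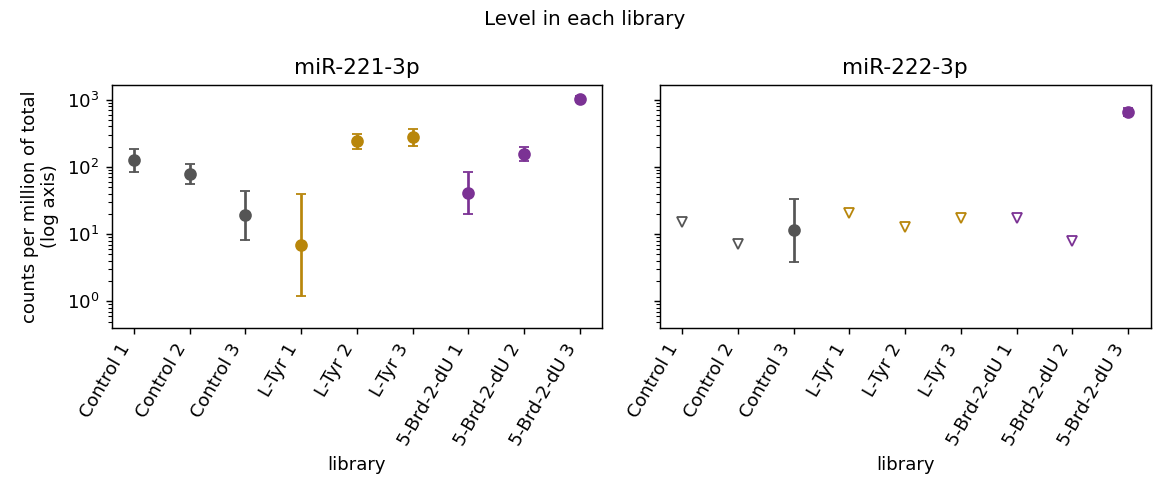
Level of miR-221-3p (left) and miR-222-3p (right) in each library, in CPM on a log axis. Filled points are measured levels with 95% Wilson intervals, and open triangles mark the limit of 3 counts in a library with 0 counts. Replicate 3 of 5-Brd-2′-dU was highest for both, at 1028 and 653 CPM, and 7 libraries had no miR-222-3p.

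The 5p arms were nearly silent. miR-221-5p had 0 counts beside 628 of its 3p arm over all libraries, which allows a pooled share of up to 0.478%. Within single libraries the limit was 0.765% in replicate 3 of 5-Brd-2′-dU and 5 to 60% in the others. Replicate 1 of L-Tyr, with 1 count, gave no limit. miR-222-5p had 8 counts, all in replicate 2 of 5-Brd-2′-dU, a library in which its 3p arm was at 0. The arms of mir-222 were therefore never seen together in a library, and its share of 3p counts could not be compared between conditions.

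The ratio of the pair could be formed in 2 libraries only. In replicate 3 of 5-Brd-2′-dU, miR-221-3p made up 61.2% of the pair's 3p counts (95% Wilson interval 57.3 to 64.9%, 392 to 249 counts). In replicate 3 of the control it made up 62.5% (30.6 to 86.3%, 5 to 3 counts). In the other 7 libraries every count was of miR-221-3p. In replicate 2 of 5-Brd-2′-dU these were 60 of 60, with a lower bound of 94.0%, and in replicate 2 of L-Tyr 57 of 57, with a lower bound of 93.7%. These bounds cover counting error within a library and are no test between libraries.

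L-Tyr was set against control to see whether the pair moves when pigmentation is induced. miR-221-3p was 1.09 higher on the log2 scale (SE 1.33, n = 3 and 3), with an adjusted p of 0.81 (edgeR quasi-likelihood F test, adjusted by Benjamini and Hochberg over all arms). Among 264 arms tested 2.65% passed the threshold of 0.05 in either direction. Leaving out each library in turn gave values from 0.59 to 1.64, none of which passed. miR-222-3p failed the filter on low counts, as it had 3 counts in the control and 0 with L-Tyr.

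With 5-Brd-2′-dU, which slows growth, miR-221-3p was 2.80 higher than in control cells on the log2 scale (SE 1.31, n = 3 and 3), with an unadjusted p of 0.0677 and an adjusted p of 0.313 by the same edgeR test. Without replicate 3 of 5-Brd-2′-dU the difference was 0.33 (SE 1.27) and the adjusted p was 0.957. Leaving out any other library kept it between 2.46 and 3.45. In this comparison 3.11% of 289 arms passed. miR-222-3p again failed the filter. When no filter was applied, edgeR gave it an adjusted p of 0.0189, where 7.39% of 704 arms passed, and without replicate 3 of 5-Brd-2′-dU the adjusted p was 0.584. DESeq2 returned no p for it with all libraries.

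Between the exposures, miR-221-3p was 1.71 higher with 5-Brd-2′-dU than with L-Tyr on the log2 scale (SE 1.49, n = 3 and 3), with an adjusted p of 0.843 by edgeR. Without replicate 3 of 5-Brd-2′-dU the sign turned, to -0.85 (SE 1.61, adjusted p 0.994). Of 256 arms 2.34% passed. Without a filter the adjusted p of miR-222-3p was 0.0109 in edgeR, where 4.06% of 665 arms passed. Without replicate 3 of 5-Brd-2′-dU it had 0 counts in the libraries of this comparison and no test, and with all 3 L-Tyr libraries at 0 no fold change can be given from the fit. The control and L-Tyr libraries serve in 2 comparisons each, as do those of 5-Brd-2′-dU, so the 3 comparisons are not independent.

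**Figure D2:**
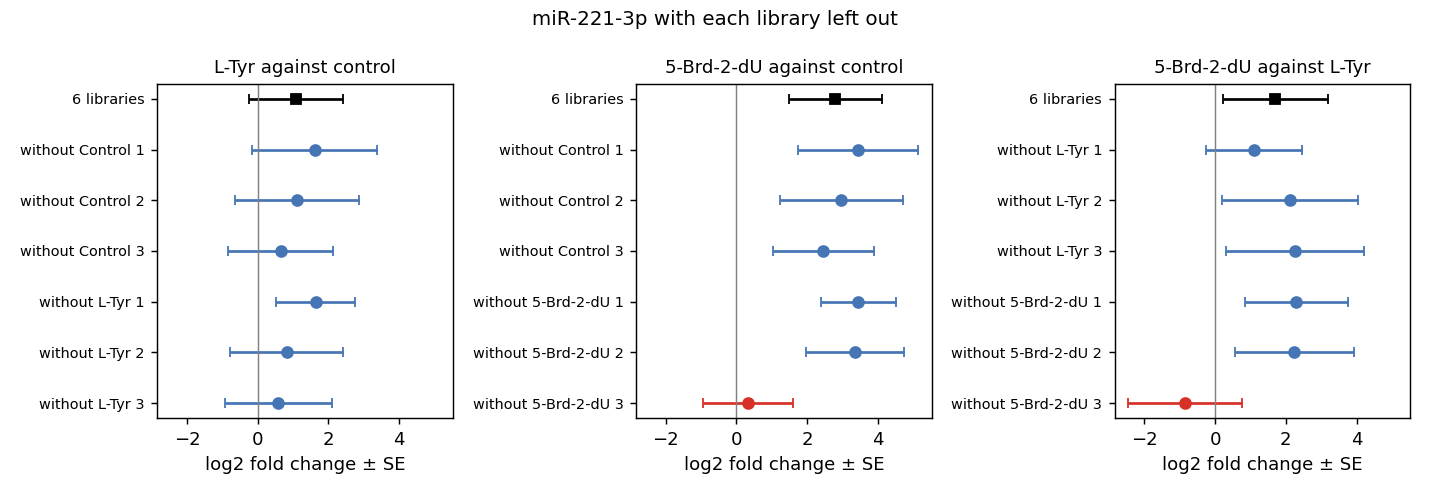
Log2 fold change of miR-221-3p with its SE in each comparison, from all 6 libraries (black squares) and with each library left out (circles). The red circles, without replicate 3 of 5-Brd-2′-dU, lie at 0.33 and -0.85, against 2.80 and 1.71 with all libraries.

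The single tags showed a second feature of that library, the position at which miR-221-3p starts. In replicate 3 of 5-Brd-2′-dU, 278 of 392 counts began at the reference 5′ end, or 70.9% (95% Wilson interval 66.2 to 75.2%). In the other 8 libraries together it was 3 of 236, or 1.27% (0.433 to 3.67%). These 3 counts were 1 each in replicate 2 of the control and replicates 1 and 3 of L-Tyr. The remaining counts of the 8 libraries started 2 to 5 bases later, where bases 2 to 8 are no longer the miR-221 seed. Since no tag is longer than 20 nt, a 23 nt sequence with the reference start could not be listed whole. The shares therefore cover listed tags only.

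The tag ending in gt had 198 of its 200 counts in replicate 3 of 5-Brd-2′-dU, and the tag ending in a, with G19A, had 80 of its 81. The tags at +2 and +5 and the longer tag at +3 had 0 counts there. The tag at +2 was seen in replicate 1 of the control (9 counts) and replicate 2 of L-Tyr (13 counts). The tag at +4 had 46 of its 86 counts in replicate 3 of L-Tyr and 30 in replicate 3 of 5-Brd-2′-dU. No tag of mir-221 was counted in more than 4 of the 9 libraries, so the sum over the arm joined different tags in different libraries.

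**Figure D3:**
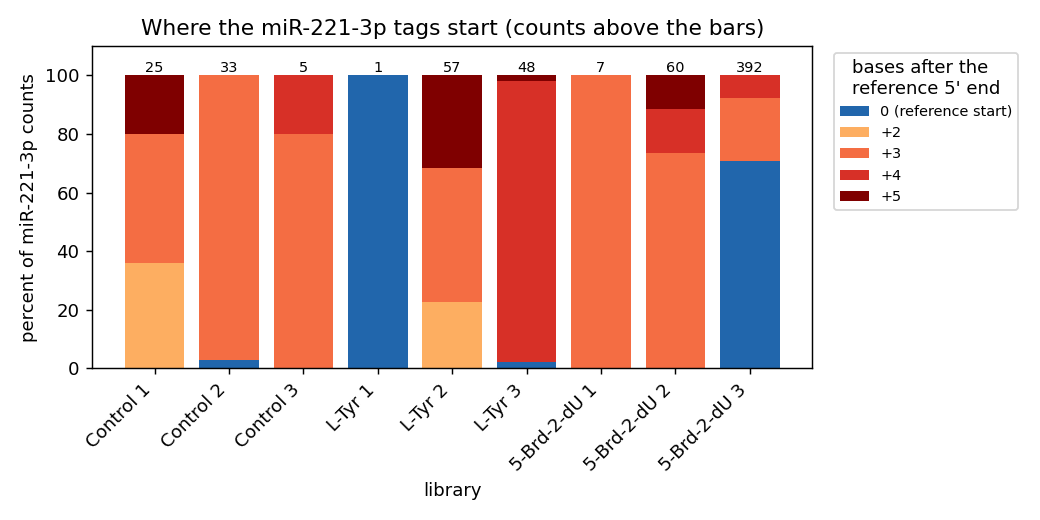
Share of miR-221-3p counts by start position in each library, in percent, with the number of counts above each bar. Blue is the reference 5′ end and the other colours are starts 2 to 5 bases later. The reference start took 70.9% of 392 counts in replicate 3 of 5-Brd-2′-dU, while the single blue bar of L-Tyr 1 is 1 count.

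As shares per library, counts at the reference start averaged 1.01% ± 1.75 (SD, n = 3) in control cells, 34.0% ± 57.1 (SD, n = 3) with L-Tyr and 23.6% ± 40.9 (SD, n = 3) with 5-Brd-2′-dU. The L-Tyr mean comes from a library with 1 count. Exact two-sided permutation tests gave p = 0.7 for L-Tyr against control, p = 1.0 for 5-Brd-2′-dU against control and p = 0.7 for 5-Brd-2′-dU against L-Tyr, all 1.0 after adjustment over the 3 tests. The smallest p that 3 libraries against 3 allow is 0.1. The shares of the conditions overlapped, and the high value of replicate 3 of 5-Brd-2′-dU has no replicate check.

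miR-222-3p showed the same start in the same library. There 150 of 249 counts began at the reference 5′ end, or 60.2% (54.1 to 66.1%), and the others began 2 or 3 bases later (34 and 65 counts). The 3 counts of replicate 3 of the control also began at the reference. Counting both members, listed tags with the shared seed in place had 428 counts in replicate 3 of 5-Brd-2′-dU, or 1122 CPM. The other 8 libraries together had 6, and 233 of their 239 counts of the 3p arms had a shifted start. The start 0 tags all end 3 or 4 bases before the reference 3′ end. Amounts of longer sequences with the seed are not known in any library.

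The start was also compared over all arms. Of those with a reference sequence, 38.0% of the counts were at the reference start in replicate 3 of 5-Brd-2′-dU, against 18.1 to 25.5% in the other libraries. Among 152 arms with at least 50 counts on both sides, the median share was 28.4% in that library and 22.6% in the 8 others, and the median difference was 3.34 percentage points. The difference for miR-221-3p was 69.6 percentage points, and 3 arms, itself included, reached that size. Its share in the 8 libraries was also low, as 11 arms lay at or below it. The comparison over all arms was chosen after the values of miR-221-3p were seen and has no test.

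The tags at +3 differ by 1 base at the 3′ end and were counted in different libraries. The shorter tag at +3, ending in ttt, had 0, 0 and 4 counts in control cells, 0 in all L-Tyr libraries, and 7, 25 and 84 with 5-Brd-2′-dU. It was the only tag of the pair counted in all 3 libraries of a condition, and its counts there did not overlap with those of L-Tyr or control. Of all tags with counts, 3.39% had their 5-Brd-2′-dU libraries all above those of L-Tyr and 4.17% above those of control (as CPM). The longer tag, ending in tttc, had 11, 32 and 0 counts in control cells, 0, 26 and 0 with L-Tyr, and 0, 19 and 0 with 5-Brd-2′-dU. Added together, the tags at +3 came to 55.3, 75.4 and 15.2 CPM in control cells, 0, 109 and 0 CPM with L-Tyr, and 40.8, 114 and 220 CPM with 5-Brd-2′-dU, and all 3 conditions overlapped. Their seeds are identical.

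Fitted singly, the tag ending in ttt was 4.50 higher with 5-Brd-2′-dU than in control cells on the log2 scale (SE 1.89), with an unadjusted p of 0.0372 and an adjusted p of 0.408 by edgeR. Without replicate 3 of 5-Brd-2′-dU the difference was 3.01 (SE 2.31, adjusted p 0.826). No tag passed in that comparison (0% of 1488, with 156 at an unadjusted p under 0.05 and 37 called by DESeq2). The tag ending in tttc was -1.40 (SE 1.95, adjusted p 0.902) in the same comparison and -0.38 (SE 2.03, adjusted p 0.957) for L-Tyr against control, where 0.0796% of 1256 tags passed.

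Between 5-Brd-2′-dU and L-Tyr, 0.162% of 1234 tags passed in edgeR, and no tag of the pair got through its filter. DESeq2, run as an alternative, called the tag ending in ttt (adjusted p 0.0276), where it called 1.01% of 4069 tags. Its unadjusted p was 0.133 without replicate 3 of 5-Brd-2′-dU, and DESeq2 then gave no adjusted p. With all libraries, edgeR without its filter gave this tag an adjusted p of 0.377. A fold change for this tag is not given, as its L-Tyr libraries are all at 0. The study itself used DESeq2 and lists miR-221-3p among the microRNAs higher with 5-Brd-2′-dU than with L-Tyr. Its text describes counts per mature microRNA for sequences identical to the reference. That unit differs from the arm sums used here, so the results are not directly comparable.

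Markers of other cell types moved with the pair in replicate 3 of 5-Brd-2′-dU. All 7 listed stromal and endothelial microRNAs, which include miR-143, known from smooth muscle and fibroblasts, and miR-126a, known from endothelium, were highest there. Their summed level was 202987 CPM, against at most 8298 CPM in the other 8 libraries. The sum was mostly miR-143, at 193662 CPM there and 7303 CPM in replicate 2 of L-Tyr, the next highest library. The miR-199 hairpins differed little, at 498 to 787 CPM against 443 to 478 CPM in replicate 1 of the control. The erythroid list, led by miR-451a, came to 4820 CPM against at most 537 CPM, with 2 of its 4 members highest there. Of the 4 leukocyte microRNAs miR-142a and miR-223 were highest there and miR-150 and miR-155 were at 0, and the sum was 1104 CPM against at most 75.6 CPM. The hepatic list, at 682 CPM, lay within the range of the others, which reached 794 CPM. These lists leave out many of the arms that set this library apart, such as miR-379-5p, miR-431-5p, miR-369-3p and miR-200c-3p. The part of these cell types in the levels of the pair was not tested.

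**Figure D4:**
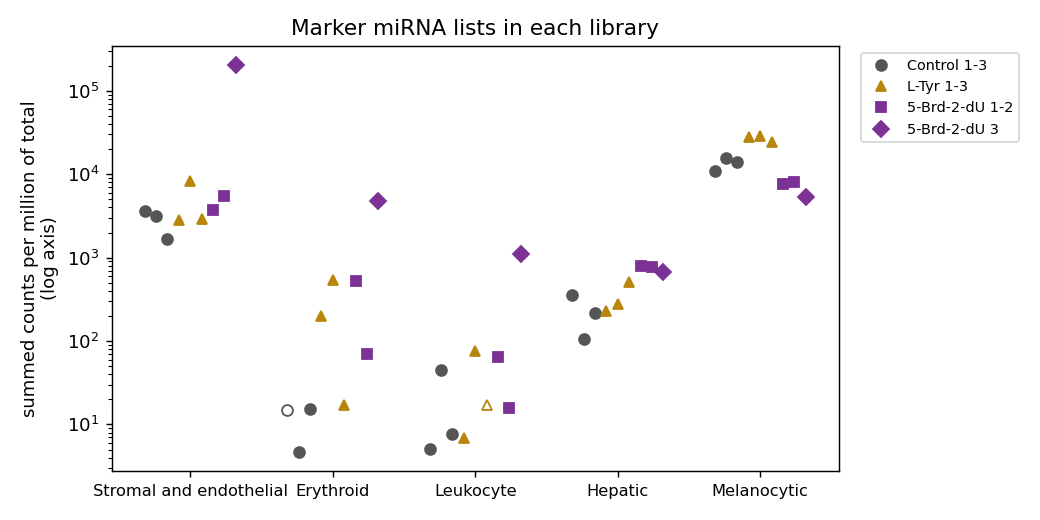
Summed level of 5 lists of marker microRNAs in each library, in CPM on a log axis, with open symbols at the limit of 3 counts for libraries at 0. Replicate 3 of 5-Brd-2′-dU (diamonds) lay above all others for the stromal and endothelial (202987 CPM), erythroid (4820 CPM) and leukocyte (1104 CPM) lists and lowest for the melanocytic one (5394 CPM). The stromal and endothelial sum was mostly miR-143 (193662 CPM).

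The arms most like each member were found by Pearson correlation of log2 CPM with 181 arms of other hairpins over the 9 libraries, as a description without a test. For miR-221-3p these were miR-17-3p (r = 0.85), a predicted hairpin named for miR-126a (r = 0.79) and miR-143-3p (r = 0.78). Without replicate 3 of 5-Brd-2′-dU the values were 0.83, 0.50 and 0.50. For miR-222-3p the nearest were miR-369-3p (r = 0.98), miR-431-5p (r = 0.96) and miR-379-5p (r = 0.94), all counted mainly in that library. These values rest on it, since the 8 others hold 3 counts of miR-222-3p in all. Between the members r was 0.63 over 9 libraries, and none is given over 8, where miR-222-3p had counts in 1 library only.

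Other microRNAs of the X chromosome were listed for comparison. Of 30 listed hairpins 25 had counts, and 0 of 21, 0 of 26 and 0 of 22 tested arms passed in the comparisons of L-Tyr with control, 5-Brd-2′-dU with control and 5-Brd-2′-dU with L-Tyr by edgeR. At an unadjusted p under 0.05 they were 2, 5 and 4, or 9.52, 19.2 and 18.2%, beside 14.8, 19.0 and 12.9% of all arms tested. By adjusted p, 0 of 28 and 0 of 22 passed in the comparisons of 5-Brd-2′-dU without its replicate 3. Over all arms 9 of 315 and 5 of 280 passed there. Of this list, miR-322-5p, miR-542-3p and miR-223-3p were among the arms that set replicate 3 of 5-Brd-2′-dU apart. miR-322-5p was at 5268 CPM there and at most 200 CPM in any other library. By hairpin sum, 4 of the 30 listed were highest in that library. With all libraries, the listed arms had median log2 differences of -0.39, 0.13 and 0.04, beside -0.13, -0.09 and 0.01 over all arms tested. The medians of all arms became 0.07, -0.12 and -0.11 when libraries were scaled by total count.

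Of the microRNAs known to promote melanoma, by growth or by invasion, 8 were listed and 6 had tested arms. With 5-Brd-2′-dU, miR-21a-5p rose by 2.34 against control (SE 0.48, adjusted p 0.0458 by edgeR), as 1 of 9 arms beside 3.11% of all, and by 1.81 against L-Tyr (SE 0.30, adjusted p 0.0185), as 1 of 8 beside 2.34%. Without replicate 3 of 5-Brd-2′-dU these were 2.06 (adjusted p 0.0734), which no longer passed, and 1.50 (adjusted p 0.0327). Of 16 alternatives 8 lost the call against control (adjusted p up to 0.189) and 6 that against L-Tyr (up to 0.206), the replicate block among both. With L-Tyr, miR-30d-5p rose by 0.92 (SE 0.15, adjusted p 0.0218), also as 1 of 9, beside 2.65% of all, and 6 of 16 alternatives lost the call (adjusted p up to 0.177), namely the replicate block and leaving out any control library or replicate 1 or 3 of L-Tyr. Of the 14 known to restrain melanoma, 0 of 8 arms passed in either comparison with control cells, beside 2.65 and 3.11% of all. At an unadjusted p under 0.05 by edgeR they were 3 (37.5%) with L-Tyr and 5 (62.5%) with 5-Brd-2′-dU, in both directions. Both arms of miR-211 were among them each time. All arms tested had 14.8 and 19.0%. Between the exposures miR-193b-3p was higher with 5-Brd-2′-dU and both arms of miR-211 were lower. These were 3 of 9 arms, beside 2.34% of all, and 3 of 10 without replicate 3 of 5-Brd-2′-dU, beside 5 of 280. At an unadjusted p under 0.05 the list had 6 of 9 (66.7%), beside 12.9% of all. These arms include both of miR-211 and those of both miR-26a hairpins, so they are not separate microRNAs. The call of miR-193b-3p was lost in 6 of 16 alternatives (adjusted p up to 0.153), among them the replicate block and the fit of 9 libraries, that of miR-211-3p in 3 (up to 0.116) and that of miR-211-5p in 1 (0.0514, without replicate 2 of 5-Brd-2′-dU).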

How the data were processed

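Small RNA was sequenced from 3 libraries for each of the conditions (control, L-Tyr, 5-Brd-2′-dU), grouped by their labels, with 144452 to 424122 counts each. The authors' deposited values used here are raw counts per sequence tag, made with the BaseSpace Small RNA app from reads compared with mm9 and miRBase. The authors' normalized counts and their tables of fold changes and p-values were not used. The study's methods state that longer reads were aligned as well, but no tag is longer than 20 nt and the reason is not given in the sources used here, so a full 23 nt miR-221-3p could not be counted as such.

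Counts were summed per hairpin and arm. Each comparison used its 6 libraries in edgeR 4.0.16 (R 4.3.3) with TMM factors, filterByExpr, the quasi-likelihood test and Benjamini-Hochberg adjustment over all arms, or separately all tags, with calls at an adjusted p under 0.05. Member arms, their 3 most abundant tags each and tags with an unadjusted p under 0.05 were named. The pipeline was tested on simulated data, where 78.8% of arms changed by 3 on the log2 scale were called for 5-Brd-2′-dU against control, 48.5% for L-Tyr against control and 43.6% for 5-Brd-2′-dU against L-Tyr, but at most 5.71% of those changed by 1. The simulation gave all arms the same spread and held no library that stood apart. These rates may therefore not hold for miR-221-3p. For correlations, log2 CPM were formed with a prior of 2 counts for arms with a mean count of at least 50. Alternatives were DESeq2 1.42.0 and its size factors, total count scaling, other filters, a fit of 9 libraries, a replicate block, tags of at least 17 nt, tags under 1 hairpin, and leaving out each library. The fits of DESeq2 or without a filter that also left out replicate 3 of 5-Brd-2′-dU were chosen after seeing the data. Permutation tests used scipy 1.17.1. The members, lists and tests were chosen with earlier results of these data known.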

Additional observations from a re-analysis of the deposited data

How the results depend on the processing

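For miR-221-3p, no alternative passed the threshold in any comparison. Leaving out 1 library gave 0.59 to 1.64 for L-Tyr against control, 0.33 to 3.45 for 5-Brd-2′-dU against control and -0.85 to 2.30 for 5-Brd-2′-dU against L-Tyr, the last turning sign only without replicate 3 of 5-Brd-2′-dU (also -0.86 without a filter and -0.83 with DESeq2). The replicate numbers did not pair the libraries. Once the mean of its condition was subtracted from each arm, same-numbered libraries correlated over arms at -0.113 to 0.0553. With a replicate block the differences of miR-221-3p were 0.82, 1.38 and 1.37, with adjusted p of 0.927, 0.775 and 0.801 in edgeR. The tag ending in tttc ran from -6.43 to 0.29 for L-Tyr against control and reversed without replicate 2 of the control (0.29) or replicate 1 (0.14) or 3 (0.18) of L-Tyr. For the share at the reference start, leaving out 1 library gave 0.0316 to 50.0 percentage points for L-Tyr against control, -1.01 to 34.4 for 5-Brd-2′-dU against control (lowest and reversed without replicate 3 of 5-Brd-2′-dU) and -34.0 to 22.6 for 5-Brd-2′-dU against L-Tyr. The last also reversed, to 1.43, without replicate 1 or 2 of 5-Brd-2′-dU, and to 22.6 without replicate 1 of L-Tyr. The correlation of miR-222-3p with miR-431-5p reversed to -0.29 without replicate 3 of 5-Brd-2′-dU, where it rests on 3 counts.

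In the order of the comparisons above, 7, 9 and 6 arms were called. Without a filter they were 14, 52 and 27, with DESeq2's test 19, 29 and 16, and with the replicate block 1, 1 and 3. Total count scaling gave 3 for the second, tags under 1 hairpin 3 for the second, and a fit of 9 libraries 3 for the third. Leaving out 1 library gave 0 to 10, 1 to 15 and 0 to 5. Of the tags 1, 0 and 2 were called. Without a filter they were 11, 85 and 47, with DESeq2's test 48, 37 and 41. For the first, total count scaling gave 6, leaving out the most abundant entry 0, a mean count of at least 50 gave 8 and the block 0. For the second, 9 libraries gave 3 and the block 1, and for the third 9 libraries gave 1. Leaving out 1 library gave 1 to 2, 0 to 14 and 0 to 3. The cause was not tested. No paired analysis was possible for the ratio of the pair and the share of the 3p arm because they had a value in too few libraries. The mean count of at least 50 left no value of miR-221-3p for L-Tyr against control. For miR-222-3p, a count of 0 in 7 libraries allows up to 7.07 to 20.8 CPM. Among these were replicate 2 of the control (424122 counts) and replicate 2 of 5-Brd-2′-dU (384486 counts). Both were deeper than replicate 3 of 5-Brd-2′-dU (381324 counts).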
